A study of Homo sapiens with 6 samples.

Results

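The B7 ligands and CD28-family receptors examined here were TMIGD2, its ligand HHLA2, the receptor CD28 and the ligands CD80, CD86, CD274, PDCD1LG2, ICOSLG, CD276 and VTCN1. These 10 genes were taken by symbol from a table of 31999 genes, and 9 of them were listed. The RNA came from HEL cells, a human erythroleukemia line, transduced with a control hairpin (shCtrl, 3 libraries) or with a hairpin against TMIGD2 (shTMIGD2, 3 libraries). All 6 libraries shared the parental line, lentiviral transduction with a pLKO.1 vector, puromycin selection, poly(A) enrichment and a directional kit, and each group was labelled as 3 biological replicates. Which of the TMIGD2 hairpins was sequenced is not given in the labels.

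The value analysed for each gene was the authors' mean log2 CPM (read counts scaled to a common library total) over the 6 libraries. It gives 1 level per gene with no value per library, so no spread between replicates, no test and no difference between shTMIGD2 and shCtrl is given. Intervals are 95% exact Poisson intervals on the reads summed over the 6 libraries and cover counting error only. The lowest values of the column fell in steps of whole reads, which placed the mean depth at about 31690000 reads per library. Of the 12667 genes with fewer than 30 reads, 96.9% lay within 0.05 of a whole read. A gene was counted as expressed above a mean log2 CPM of 0.5, which is about 42.8 reads per library.

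T cells need a signal through the antigen receptor and a second signal from costimulatory receptors of the CD28 family. Their ligands, the B7 family, sit on antigen-presenting cells and on many tumor cells, and either raise or restrain the response depending on the receptor bound. TMIGD2, also called CD28H, is a costimulatory receptor of naive T cells and NK cells whose ligand is HHLA2, and HHLA2 is also bound by the inhibitory receptor KIR3DL3. CD28 and CTLA4 share the ligands CD80 and CD86, PD-1 (PDCD1) binds PD-L1 (CD274) and PD-L2 (PDCD1LG2), and ICOS binds ICOSLG.

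Stretches before the first base of 5 ligand genes are shown, with CG dinucleotides in capitals, to set the ligand with the highest level, CD274, beside others. They are the ligand genes for which 211 or more bases of the RefSeq window lay outside the gene. They are from RefSeq on GRCh38.p14, on the gene's strand, 5′ to 3′, and end before the first base of the gene in both RefSeq and GENCODE. The stretch of CD274 is chr9:5450292-5450502 on the plus strand and holds 9 CG in 211 bases. That of CD80 is chr3:119559615-119559864 on the minus strand, with 6 CG in 250 bases, and that of CD86 is chr3:122055112-122055361 on the plus strand, with 2 CG in 250 bases. The stretch at the first start of HHLA2 is chr3:108296298-108296528 on the plus strand and holds 1 CG in 231 bases. The stretch of VTCN1, the ligand with the fewest reads, is chr1:117210961-117211177 on the minus strand, with 5 CG in 217 bases, close to the density before CD80.
CD274: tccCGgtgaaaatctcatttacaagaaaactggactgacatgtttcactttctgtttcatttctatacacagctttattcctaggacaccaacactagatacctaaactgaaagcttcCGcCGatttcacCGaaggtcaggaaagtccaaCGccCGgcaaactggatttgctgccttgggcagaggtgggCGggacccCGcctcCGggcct
CD80: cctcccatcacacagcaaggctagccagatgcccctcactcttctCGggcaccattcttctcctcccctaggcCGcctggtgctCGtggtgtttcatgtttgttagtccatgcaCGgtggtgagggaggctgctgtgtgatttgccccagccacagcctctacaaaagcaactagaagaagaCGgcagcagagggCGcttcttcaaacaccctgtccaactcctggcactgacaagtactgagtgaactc
CD86: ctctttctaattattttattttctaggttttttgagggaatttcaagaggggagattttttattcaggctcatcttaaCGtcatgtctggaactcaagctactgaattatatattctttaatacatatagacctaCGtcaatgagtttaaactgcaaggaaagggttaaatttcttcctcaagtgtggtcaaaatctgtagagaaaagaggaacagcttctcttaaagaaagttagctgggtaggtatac
HHLA2: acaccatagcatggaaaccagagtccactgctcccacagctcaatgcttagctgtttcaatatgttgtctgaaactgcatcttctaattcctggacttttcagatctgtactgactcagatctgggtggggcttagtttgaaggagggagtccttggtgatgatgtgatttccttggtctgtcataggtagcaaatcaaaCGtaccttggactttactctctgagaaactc
VTCN1: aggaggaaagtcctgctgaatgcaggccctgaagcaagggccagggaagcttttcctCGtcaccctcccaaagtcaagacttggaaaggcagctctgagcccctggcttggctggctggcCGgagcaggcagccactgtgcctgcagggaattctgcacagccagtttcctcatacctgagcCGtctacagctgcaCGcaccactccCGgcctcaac

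TMIGD2 was transcribed in HEL cells and its ligand HHLA2 was close to the lowest level that the table lists. The mean log2 CPM of TMIGD2 was 4.08, above 75.3% of the genes listed, from 3209 reads (3099 to 3322) or 535 per library. HHLA2 stood at a mean log2 CPM of -3.66 from 3 reads in the 6 libraries together (0.619 to 8.77). The paper reports an HHLA2 knockdown in HEL cells, and its knockdowns were checked by flow cytometry. It calls other lines that it used, but not HEL, negative for HHLA2. Levels here are of RNA with no protein measured beside them, and why they differ from the flow cytometry was not tested. Per kilobase of exon, the level of TMIGD2 was 13.3 CPM (12.9 to 13.8) and that of HHLA2 was 0.00442 CPM (0.000910 to 0.0129). The ratio of these levels was 3017 (exact binomial 95% interval 1032 to 14639), and 605 if the offset of 2 reads per library assumed in the column is left in. Because 3 of the 6 libraries carried a hairpin against TMIGD2, its mean is not the level of the control cells, and the knockdown could not be checked library by library.

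CD28 itself, the founding costimulatory receptor of the family (chr2:203706475-203738912, plus strand), was not listed. With the assumed offset removed, no gene was listed with fewer than 2 reads in all, and 2234 genes stood at 2 reads.

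**Figure D1:**
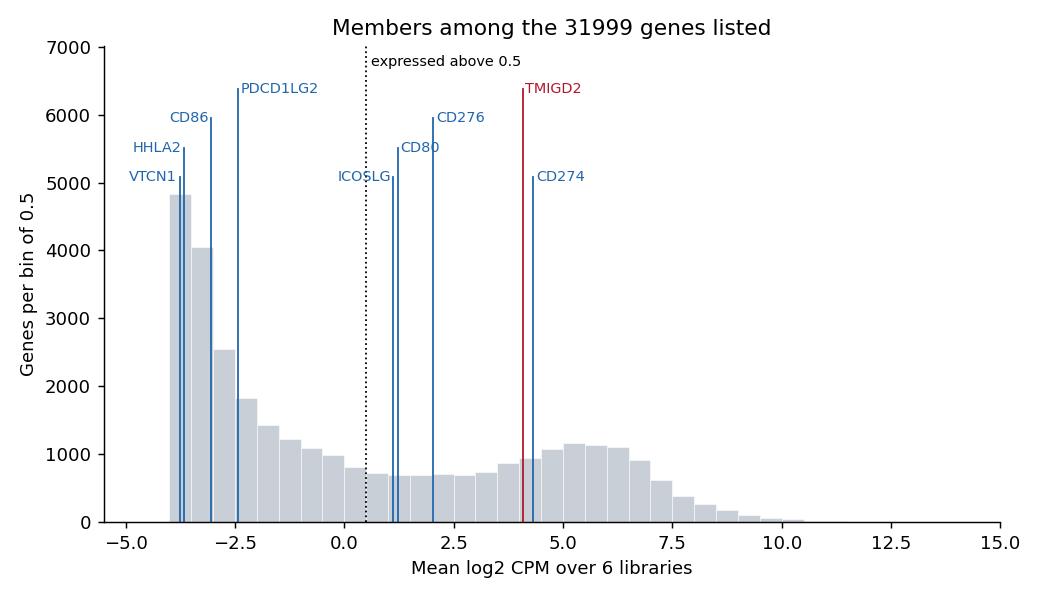
Histogram of the mean log2 CPM over 6 libraries of the 31999 genes listed (bins of 0.5), with a vertical line at each of the 9 members listed and a dotted line at 0.5. TMIGD2 (4.08) and CD274 (4.32) lie among the well-expressed genes, CD276, CD80 and ICOSLG between 1.12 and 2.04, and PDCD1LG2, CD86, HHLA2 and VTCN1 at -2.44 and below.

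Of the 10 members, 9 were listed and 5 were expressed (TMIGD2, CD274, CD276, CD80 and ICOSLG), against 41.2% of all genes listed. All 10 members are protein-coding genes, and the share among listed protein-coding genes was not computed. The median mean log2 CPM of the 9 members listed was 1.12, and that of all genes listed was -0.97. The 5 expressed members had 66.9 to 633 reads per library, and the other 4 listed had 0.334 to 3.84. The levels of CD80 and ICOSLG are uncertain, as described below.

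Among the ligands, CD274 (PD-L1, which restrains T cells through PD-1) was the highest. Its mean log2 CPM was 4.32, above 76.8% of genes, from 3798 reads (3678 to 3921), and its level per kilobase was 4.86 CPM (4.71 to 5.02). The level of TMIGD2 per kilobase was 2.74 times that of CD274 (2.61 to 2.87), whereas CD274 had more reads, 633 against 535 per library, over a longer transcript. With reference transcripts the ratio was 2.53. The mean of TMIGD2 includes the knockdown libraries, so the ratio is not that of the control cells. PDCD1LG2 (PD-L2), the other ligand of PD-1, had 23 reads in all (14.6 to 34.5) and a mean log2 CPM of -2.44. Per kilobase, the level of CD274 was 97.8 times that of PDCD1LG2 (65.1 to 154), or 64.4 times with the offset left in. The 2 genes lie 40.0 kb apart on chromosome 9, CD274 at chr9:5450503-5470566 and PDCD1LG2 at chr9:5510531-5571282 (hg38, plus strand), and the genes flanking the pair, PLGRKT and RIC1, had mean log2 CPM of 5.77 and 7.88.

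The ligands shared by CD28 and CTLA4 also differed from each other. CD80 had a mean log2 CPM of 1.23 from 434 reads (394 to 477), and CD86, at chr3:122055362-122121139 on the plus strand, had -3.05 from 11 reads (5.49 to 19.7). Per kilobase, the level of CD80 was 42.2 times that of CD86 (23.4 to 85.2), or 20.7 times with the offset left in. CD80, at chr3:119524293-119559614 on the minus strand, shares 798 exon bases with TIMMDC1 on the opposite strand, which had a mean log2 CPM of 6.33, and whether reads were counted by strand is not stated, so the level of CD80 is uncertain.

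CD276 (B7-H3), a ligand found on many tumors whose receptor is debated, lies at chr15:73683966-73714514 on the plus strand and had a mean log2 CPM of 2.04 from 770 reads (717 to 826). Its level per kilobase, 0.738 CPM (0.687 to 0.793), was not separated from that of CD80, 0.710 CPM (0.645 to 0.780), with a ratio of 1.04 (0.923 to 1.17). With reference transcript lengths in place of all annotated exons these levels were 1.23 and 0.834 CPM. VTCN1 (B7-H4), an inhibitory ligand best known from epithelial tumors, had 2 reads in all (0.242 to 7.22), at the lowest step of the table. HHLA2 and VTCN1 were both at or under 3 reads, and no order between them is given.

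ICOSLG, the ligand of ICOS, lies at chr21:44215382-44241446 on the minus strand and had a mean log2 CPM of 1.12 from 401 reads (363 to 442). Its level per kilobase was 0.109 CPM (0.0981 to 0.120) over all annotated exons and 0.298 CPM over the reference transcript, because its exons sum to 19441 bases in the first case and 7078 in the second. A near-identical copy, LOC102723996, lies on the same chromosome at chr21:5022531-5046683. Of the 100-base windows of ICOSLG exons, 88.5% were found again without mismatch at the copy, and reads from either cannot be told apart there, so the level of ICOSLG is uncertain.

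**Figure D2:**
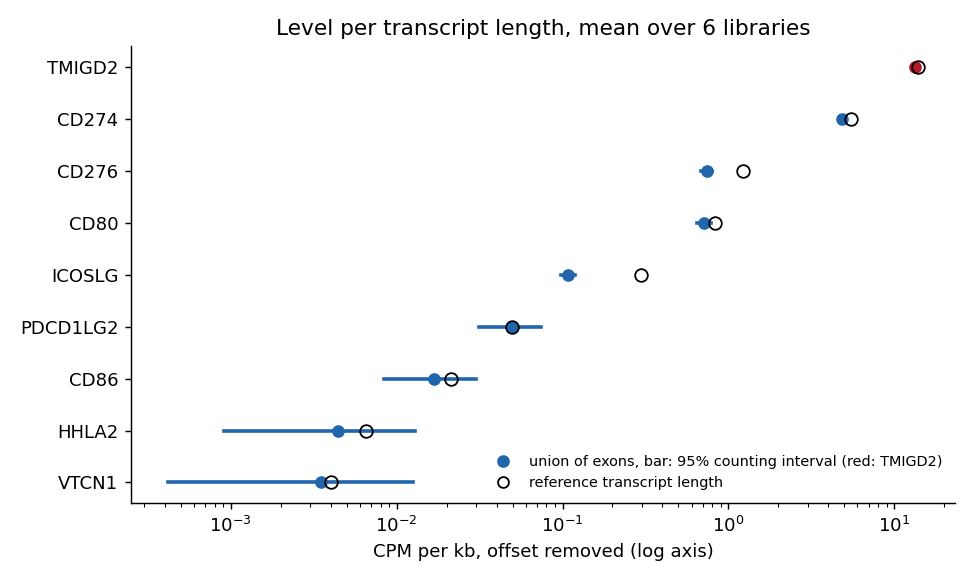
Level per kilobase (CPM per kb, log axis) of the 9 members listed, from reads over 6 libraries. Filled points use the union of annotated exons with 95% counting intervals and open points the reference transcript. TMIGD2 is at 13.3, CD274 at 4.86, CD276 and CD80 at 0.738 and 0.710 with overlapping intervals, and HHLA2 and VTCN1 are at 0.00442 and 0.00348 with wide intervals that overlap.

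By level per kilobase the order was TMIGD2, CD274, CD276, CD80, ICOSLG, PDCD1LG2 and CD86, with HHLA2 and VTCN1 last. Over all annotated exons, CD276 and CD80 were not separated by counting error. Besides TMIGD2 over CD274, the neighbours with an interval above 1 were CD274 over CD276 (ratio 6.58, 6.09 to 7.12), CD80 over ICOSLG (6.55, 5.70 to 7.52), ICOSLG over PDCD1LG2 (2.18, 1.43 to 3.48) and PDCD1LG2 over CD86 (2.95, 1.38 to 6.71). CD86 over HHLA2 was 3.81, with an interval of 1.01 to 21.3, and 1.59 with the offset left in. These intervals leave out the choice of length. With reference transcripts the ratio was 4.47 for CD274 over CD276 and 1.47 for CD276 over CD80. It was 2.80 for CD80 over ICOSLG and 5.99 for ICOSLG over PDCD1LG2. Of the level summed over the 8 ligands per kilobase of annotated exon, CD274 made up 74.9%, CD276 11.4%, CD80 10.9%, ICOSLG 1.67%, PDCD1LG2 0.766%, CD86 0.260%, and HHLA2 and VTCN1 0.0681% and 0.0536%. With reference transcripts the shares of CD274, CD276 and ICOSLG were 69.2%, 15.5% and 3.76%.

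**Figure D3:**
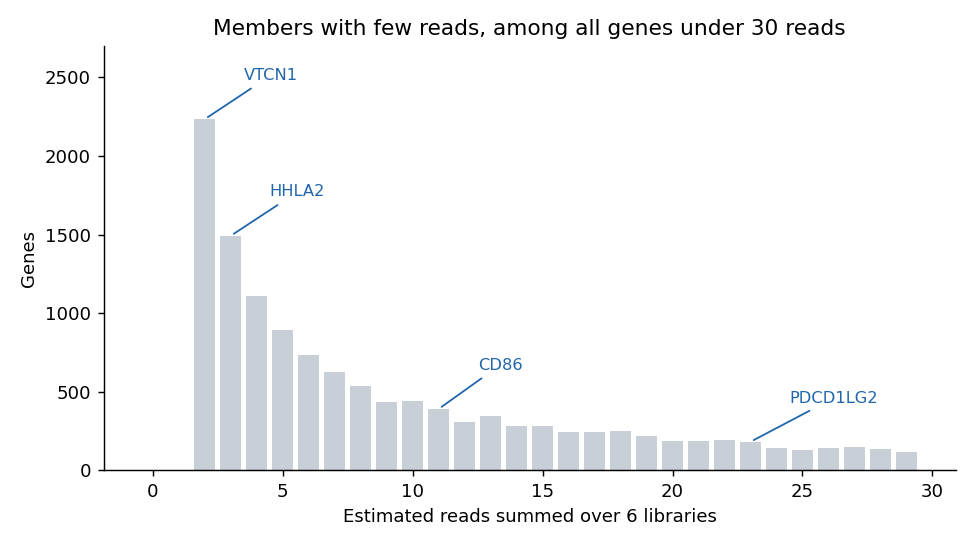
Number of genes (vertical axis) at each estimated whole number of reads summed over the 6 libraries (horizontal axis), for genes under 30 reads. VTCN1 at 2 and HHLA2 at 3 reads stand in the first steps, with 2234 and 1492 genes, and CD86 at 11 and PDCD1LG2 at 23 reads stand further out.

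The other receptors of the CD28 family were low or not listed, except ICOS. ICOS, the inducible costimulator, had a mean log2 CPM of 2.53 from 1088 reads and a level of 2.18 CPM per kilobase. The inhibitory receptors BTLA and PDCD1 had 7 and 2 reads in all, at mean log2 CPM of -3.32 and -3.76, and CTLA4 was not listed. CD28, CTLA4 and ICOS form a cluster on chromosome 2, with 115 kb between CD28 and CTLA4 and 62.8 kb between CTLA4 and ICOS, and ICOS was the gene of that cluster that was listed. TMIGD2 and ICOS were thus the 2 expressed genes of the 6 in the receptor list, against 41.2% of all genes listed.

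Of 15 known binding pairs, both transcripts were expressed in 3, the receptor alone in 1, the ligand alone in 6 and neither in 5, with genes not listed counted as not expressed. The receptor expressed without its ligand's transcript was TMIGD2. The pairs with both were ICOS with ICOSLG, the NK cell receptor NKp30 (NCR3, 3.58) with its ligand B7-H6 (NCR3LG1, 5.72), and CD274 with CD80, which bind each other on the same cell. The levels of ICOSLG and CD80 are uncertain, as described above, and so are the pairs that rest on them. The other receptor of HHLA2, KIR3DL3, was not listed. PDCD1, the receptor of CD274, stood at 2 reads. TNFRSF14 (HVEM), with a mean log2 CPM of 4.37, was expressed without BTLA and without CD160 (-0.77). RGMB, which binds PDCD1LG2, stood at -1.10.

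**Figure D4:**
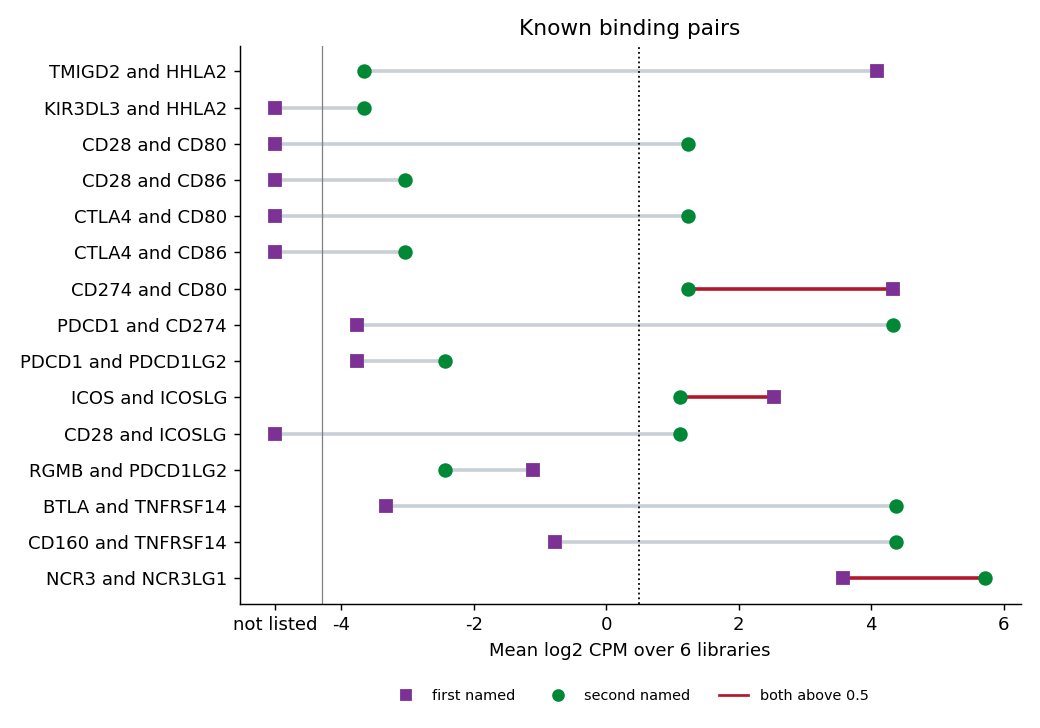
Mean log2 CPM over 6 libraries of the members of 15 known binding pairs, squares for the first and circles for the second gene named, with genes not listed drawn left of the grey line. Red bars join the 3 pairs in which both lie above the dotted line at 0.5, and the bar of TMIGD2 and HHLA2 runs from 4.08 to -3.66. The levels of CD80 and ICOSLG are uncertain.

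In the wider family of 24 related genes outside the members, 21 were listed and 12 expressed, against 41.2% of all genes listed. Of 14 relatives of the B7 ligands, 13 were listed and 8 expressed. The highest per kilobase were VSIR (VISTA, an inhibitory relative) at 16.2 CPM, the butyrophilin BTN3A2, of a family that gamma delta T cells sense, at 11.0 CPM and NCR3LG1 at 8.27 CPM. Each of these exceeded CD274 at 4.86 CPM, and BTN3A2 is uncertain because its paralogs BTN3A1 and BTN3A3 are near-identical in part. The lowest were ILDR2 at 0.0519 CPM, BTNL3 at 0.0409 CPM and BTNL8 at 0.0228 CPM, and MOG was not listed. With reference transcripts BTN3A2 stood at 20.4 CPM, above VSIR at 17.7 CPM. Among 6 other receptors of these ligands, 5 were listed and 3 expressed: TREML2, a proposed receptor of CD276, at 10.8 CPM per kilobase, NCR3 at 9.62 CPM and TNFRSF14 at 3.32 CPM. Their order depends on the length, since with reference transcripts TNFRSF14 stood at 12.1 CPM, NCR3 at 11.2 CPM and TREML2 at 10.8 CPM. CD160 and RGMB followed at 0.131 and 0.0607 CPM.

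Genes that act downstream of CD28 and TMIGD2 were expressed in 18 of 19 cases, against 41.2% of all genes listed. The highest per kilobase were the adaptor GRB2 at 59.2 CPM, the phosphatase SHP-1 (PTPN6) at 57.9 CPM and the kinase RSK1 (RPS6KA1) at 47.4 CPM, which with reference transcripts stood at 85.3, 134.3 and 87.3 CPM. Among the lowest were the PI3K subunit PIK3CD at 1.78 CPM and LCK, the kinase that starts antigen receptor signaling in T cells, at 0.00789 CPM from 5 reads. LCK was the gene of this list that was not expressed.

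A list of 12 genes for PD-L1 stability, cytokine signaling and the regulation of HLA genes was expressed in all 12 cases, with a median mean log2 CPM of 6.43. Of all genes listed, 41.2% were expressed. STAT3 at 50.9 CPM per kilobase, JAK2 at 49.6 CPM and JAK1 at 28.2 CPM, which carry cytokine signals, were the highest over all annotated exons, and JAK2 lies 321 kb from CD274 on chromosome 9. The lowest over all annotated exons were the interferon-induced factor IRF1 at 4.80 CPM, CMTM4, which stabilises PD-L1 protein, at 1.40 CPM and the class II regulator CIITA at 0.224 CPM. With reference transcripts STAT3 stood at 115.9 CPM, JAK1 at 72.9 CPM and JAK2 at 55.9 CPM.

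Markers were read beside these levels. All 10 erythroid and megakaryocytic markers of HEL cells were expressed, with mean log2 CPM from 5.52 to 10.54, the highest being ITGA2B and HBG1 (HBG1 and HBG2 share near-identical sequence). Of 8 T-cell markers 2 were expressed, CD4 at 5.69 and CD2 at 2.95, whereas the defining markers CD3D and CD3E were not listed, CD3G had 3 reads and TRAC stood at -2.82. Of 5 NK-cell markers 1 was expressed (NCAM1, 2.26, with NKG7 next at 0.35). Of 4 B-cell markers 1 was expressed (CD79A, 2.32, with PAX5 next at -2.25). Of 6 markers of monocytes and dendritic cells 1 was expressed (LYZ, 4.40, with CSF1R next at 0.26). Of 3 fibroblast markers 0 were expressed (COL1A1, -0.80, and DCN, -2.76, were the highest). The share expressed over all genes listed was 41.2%. All 6 libraries came from the HEL line, so these are marker transcripts in that line and no other cell type was sampled. Bulk RNA does not tell in how many of the cells a transcript was present.

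The chromosomal neighbours of the members were of mixed level. Of the 38 protein-coding genes that were among the 2 nearest on either side of a member, 21 were expressed and 5 were not listed. Of all genes listed, 41.2% were expressed. TMIGD2, at chr19:4292227-4302431 on the minus strand, lies between SHD at -3.11 and FSD1 at 3.87. HHLA2, at chr3:108296529-108378285 on the plus strand, lies between IFT57 at 4.40 and MYH15 at -0.79, and VTCN1, at chr1:117143587-117210960 on the minus strand, has TRIM45 at 2.09 and MAN1A2 at 6.39 on either side. HHLA2 and VTCN1 each had an expressed gene on at least 1 side.

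Promoter windows of 300 bases, from 250 before to 50 after the start, were found in RefSeq for 8 of the 10 members at 12 starts (TMIGD2 and PDCD1LG2 had no entry). The ratio of observed to expected CG was 0.945 at ICOSLG, 0.910 at CD274 and 0.764 and 0.648 at the starts of CD276, against a median of 0.579 over 35116 promoters. It was 0.521 at CD28, 0.324 at CD80, 0.299 and 0.205 at the starts of CD86, 0.272 at VTCN1 and 0.156, 0.373 and 0 at those of HHLA2. The members above the median were thus all expressed, while CD80 was expressed with a ratio below it. With 8 genes this is a description only.

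**Figure D5:**
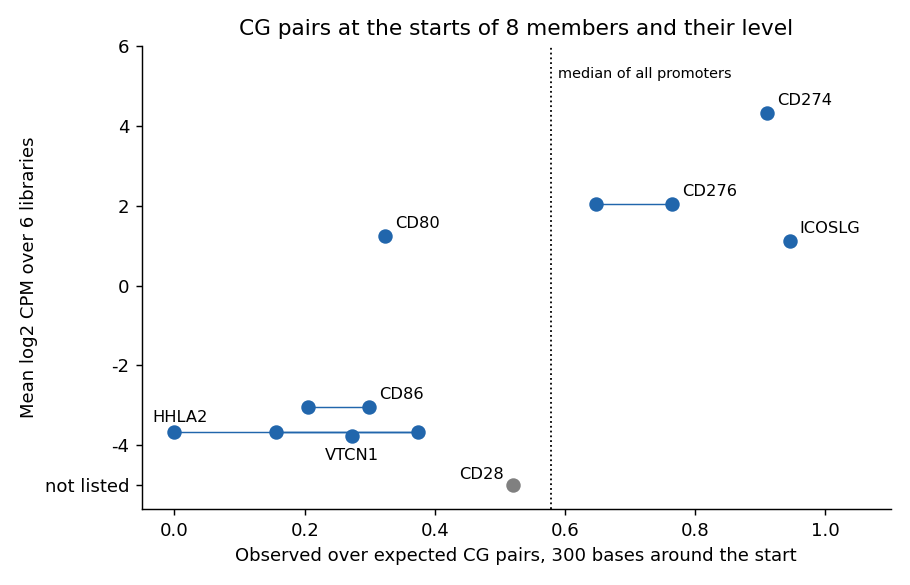
Ratio of observed to expected CG in 300 bases around each RefSeq start (horizontal axis) against the mean log2 CPM over 6 libraries (vertical axis) for 8 members, with lines joining starts of 1 gene and a dotted line at the median of all promoters, 0.579. CD274, ICOSLG and CD276 lie right of the line and above 1, and CD80 is the expressed gene left of it.

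Short motifs were searched on both strands of the same windows. The interferon element (GAAA and, after any 2 bases, GAAA again), in 3.57% of all promoters, was found at CD274 in 2 overlapping places, -208 to -199 and -202 to -193 from the start, and once at the second start of HHLA2. The STAT element TTCNNNGAA, in 7.66% of promoters, was found at CD274 at -125 to -117. In the stretch shown above, these are the runs tttcactttc, tttctgtttc and ttcaccgaa. The GATA motif AGATAA (10.3% of promoters) and TATAAA (11.5%) were found at none of the 12 starts, and the ETS motif CCGGAAG (10.3%) at the second start of CD276 alone. The GC box GGGCGG, in 45% of promoters, was found at CD274, CD276 and ICOSLG.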

How the data were processed

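RNA of HEL cells was sequenced in 3 shCtrl and 3 shTMIGD2 libraries, grouped by their labels. The study's methods describe alignment with STAR 2.6.1b to hg38 and counts per gene with HTSeq 0.6.1 on a refSeq annotation, while the gene names of the table are of another style. For differential expression, the authors used DESeq2 3.11 per these methods, keeping genes whose average count reached 1 in one of the groups. The columns of the table are instead those of an edgeR quasi-likelihood test, and it lists genes with 2 reads in all, so it does not follow that filter. The filter and normalization behind it are not given in the sources used here. The authors deposited for each gene the mean log2 CPM over the 6 libraries, and this is the value used. Another 4 columns hold the authors' own comparison of shTMIGD2 with shCtrl (log2 fold change, F, p and adjusted p) and were not used.

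Reads were estimated from the lowest 20 whole-read steps of the column, whose lowest lies 14.0 reads above 0. This was taken as an assumed offset of 2 reads per library plus 2 reads, and the offset was removed before levels were divided by length. On 3 simulated tables made with this offset the depth was read back within 0.004%. This tests the reading of the steps, not the offset. At high levels the estimate is approximate, since the mean is a weighted one. Lengths were those of the union of GENCODE 44 exons, found for 22805 of 31999 names, which may differ from the annotation counted over. Intervals are exact Poisson or, for ratios, exact binomial.

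Named were all members, the 3 highest and 3 lowest per length of each wider list with the genes of a binding pair, and the 2 highest of each marker list. The level of 1 gene that this rule names is not reported here. Other markers, the neighbours, the overlap of CD80, the copy of ICOSLG and the promoters were chosen after values were seen. The members and lists were chosen with earlier results of these data known. Alternatives were the threshold (0 and 1), the length used and the offset. Both were also applied to the ratios, and the offset to the order, after the data were seen. Python 3.11.15, numpy 2.4.6, pandas 2.3.3 and scipy 1.17.1 were used.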

Additional observations from a re-analysis of the deposited data

How the results depend on the processing

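Thresholds of 0 and of 1 in place of 0.5 left 5 members, 12 wider family genes and 3 binding pairs expressed. The order of levels kept 9 of 9 places with the longest and with the reference transcript, and 7 of 9 with no length, where CD274 stood above TMIGD2. It also kept 7 of 9 with no offset removed, where VTCN1 stood above HHLA2. The places counted include those of HHLA2 and VTCN1, between which no order is given. They also include those of CD276 and CD80, not separated by counting error over all annotated exons. With no offset removed, the median member had 68.9 in place of 66.9 reads per library, and the 4 members with few reads left their counting intervals (VTCN1 2.33, HHLA2 2.50, CD86 3.84 and PDCD1LG2 5.84 reads per library). No paired analysis was possible because the column is 1 mean over all libraries, and for the same reason no replicate could be left out. Depth limits VTCN1 and HHLA2, whose levels are known only within their counting intervals.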
